A study of Rattus norvegicus with 18 samples.

Results

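The 9 genes described here mark the oligodendrocyte lineage, the glial cells that make myelin. They were chosen by name, as the rows of the count tables called Pdgfra, Cspg4, Olig1, Olig2 and Sox10 on the progenitor side and Mbp, Cnp, Mag and Mog on the myelin side. All 9 were found among 31463 rows, and all 9 remained among the 14398 genes that passed a filter on low counts. RNA was sequenced from primary neuroglial cultures of the cerebral cortex of newborn rats, grown to day 10 in vitro and treated with a blocker of cell division that limits the growth of glia. There were 18 libraries, 3 in each of 6 groups. Control cultures received no glutamate. Glutamate cultures were exposed to 100 µM glutamate, the model of excitotoxicity, in which excess glutamate damages neurons. Memantine cultures received 100 µM memantine, a blocker of NMDA-type glutamate receptors, within the glutamate model. The remaining 3 groups were given material secreted by glial progenitor cells derived from human induced pluripotent stem cells on the day before glutamate, and are called Glutamate_vesicles (extracellular vesicles), Glutamate_secret and Glutamate_BPC. The protein fraction and the total secretome were the other preparations, but the labels do not assign them to the latter 2 groups. RNA was collected 4 h after the glutamate model in all groups. The methods of the study speak of experiments on cultures of unrelated cells, but neither they nor the labels tie single libraries to cultures, so that p-values measure the spread between these libraries, which may be technical.

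Oligodendrocytes arise from progenitor cells that carry the PDGF-AA receptor Pdgfra and the proteoglycan NG2, the product of Cspg4. The transcription factors Olig1, Olig2 and Sox10 are made in progenitors and are kept on in later stages, so that they mark the lineage rather than progenitors alone. As the cells mature they switch on genes of the myelin sheath. Cnp encodes an enzyme of non-compact myelin that appears early, Mbp the basic protein that compacts the sheath, and Mag and Mog adhesion and surface proteins of myelin, of which Mog appears late. Pdgfra and Cspg4 are also made by fibroblasts and mural cells of blood vessels, and several myelin genes by Schwann cells.

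Promoter sequences of RefSeq (assembly GRCr8, another build than that of the counts) were matched by symbol to 6 of the 9 genes. Olig1, Sox10 and Mog were not matched. The following sequences are the 250 bases upstream of the start of Olig2 and Pdgfra, from the progenitor side, and of Cnp and Mag, from the myelin side, because these sides are set against each other throughout. Each sequence runs 5′ to 3′ on the strand of its gene, and capitals mark the letters ACAAAG, the core bound by SOX factors, and GGGCGG, the GC box, on either strand. The motifs did not overlap.
Olig2 (chr11:43961335-43961584, plus strand): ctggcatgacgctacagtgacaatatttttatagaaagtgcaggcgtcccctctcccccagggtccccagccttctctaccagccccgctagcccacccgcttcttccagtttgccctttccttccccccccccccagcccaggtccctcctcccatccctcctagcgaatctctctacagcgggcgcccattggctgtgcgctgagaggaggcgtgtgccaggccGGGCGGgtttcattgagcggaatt
Pdgfra (chr14:33408517-33408766, minus strand): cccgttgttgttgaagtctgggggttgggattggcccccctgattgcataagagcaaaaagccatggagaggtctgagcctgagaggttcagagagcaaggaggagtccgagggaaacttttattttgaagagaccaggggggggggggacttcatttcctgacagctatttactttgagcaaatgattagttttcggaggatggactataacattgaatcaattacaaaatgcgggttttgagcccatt
Cnp (chr10:86011254-86011503, plus strand): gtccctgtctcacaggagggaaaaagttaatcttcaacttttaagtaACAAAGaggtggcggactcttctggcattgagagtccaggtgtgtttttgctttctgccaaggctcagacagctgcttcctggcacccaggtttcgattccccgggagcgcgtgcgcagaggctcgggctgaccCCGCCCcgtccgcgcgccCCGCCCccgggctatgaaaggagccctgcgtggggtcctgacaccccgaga
Mag (chr1:95291045-95291294, minus strand): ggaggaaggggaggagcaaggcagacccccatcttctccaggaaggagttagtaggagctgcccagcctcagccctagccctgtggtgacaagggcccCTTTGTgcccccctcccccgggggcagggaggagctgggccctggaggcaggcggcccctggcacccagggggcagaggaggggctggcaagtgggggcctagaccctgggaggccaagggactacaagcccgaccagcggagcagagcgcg
Cnp and Mag each held 1 SOX core, which began at positions -203 and -152 counted from the start. Olig2, Pdgfra and Cspg4 held none. Mbp, whose sequence is not printed, has 2 promoters in the table, of which 1 held the SOX core, at position -240. Of all 33469 promoters in the table, 16.3% held this core in the same window. Cnp and Cspg4 held 2 GC boxes each and Olig2 held 1, whereas Mag and Pdgfra held none. The promoters of Mbp held 2 and 1. The share of all promoters with a GC box was 30.5%. The base composition also differed, with 47.2% G and C in Pdgfra, 60.4% in Cnp, 62.0% in Olig2 and 70.0% in Mag. A match of letters is a description of the sequence and not evidence of binding.

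The libraries were not alike in depth or composition. Between 8409574 (Control 1) and 17206354 counts (Glutamate_vesicles 2) were assigned per library, and ribosomal RNA took from 3.04% to 43.0% of the counts, the highest share being that of Control 1. Levels are given as CPM, the count divided by the library size and put on a common scale, with library sizes adjusted by TMM (trimmed mean of M values), which assumes that most genes do not differ. The floor of 3 counts stood between 0.120 and 0.857 CPM. The summed level of 8 neuron markers was 2087 to 2790 CPM in Control and 594 to 1123 CPM in Glutamate, and the 9 libraries of the secreted preparations held 497 to 1079 CPM. Memantine 1 and 2 held 3305 and 2273 CPM, whereas Memantine 3 held 649 CPM, so that this library stood apart from its group and near the Glutamate libraries. The sum of 8 astrocyte markers was 2954 to 6399 CPM in Control and 5676 to 11340 CPM in Glutamate. Markers of other sources of these genes were low. Of 8 fibroblast and mural cell markers, 3 passed the count filter and their sum did not exceed 20.0 CPM in any library, with Dcn and Rgs5 at 0 counts in all Control libraries. Of 6 Schwann cell markers, 2 passed the filter (Prx and Pmp2), the sum reached at most 14.9 CPM, and Cdh19, Foxd3 and Ncmap were at 0 counts in the Control and Glutamate_vesicles libraries. In bulk RNA, fewer cells of a type and less RNA per cell cannot be told apart.

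The lineage label fitted the data in that all 9 genes gave counts, but their evidence was uneven. Between 725 and 13109 counts of Olig1 and between 617 and 7939 counts of Cnp were found per library. Mag rested on 6 to 317 counts. Mog rested on at most 52 counts and was at 0 in Control 3, where the floor of 3 counts was 0.162 CPM. Its other libraries ranged from 0.258 to 3.43 CPM, and the groups overlapped. Of 16 further myelin genes, 12 passed the filter. The late myelin genes Mal, Opalin and Ermn were among those that did not pass it. Of 15 further progenitor genes, 14 passed, and Lhfpl3 was not found among the rows.

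**Figure D1:**
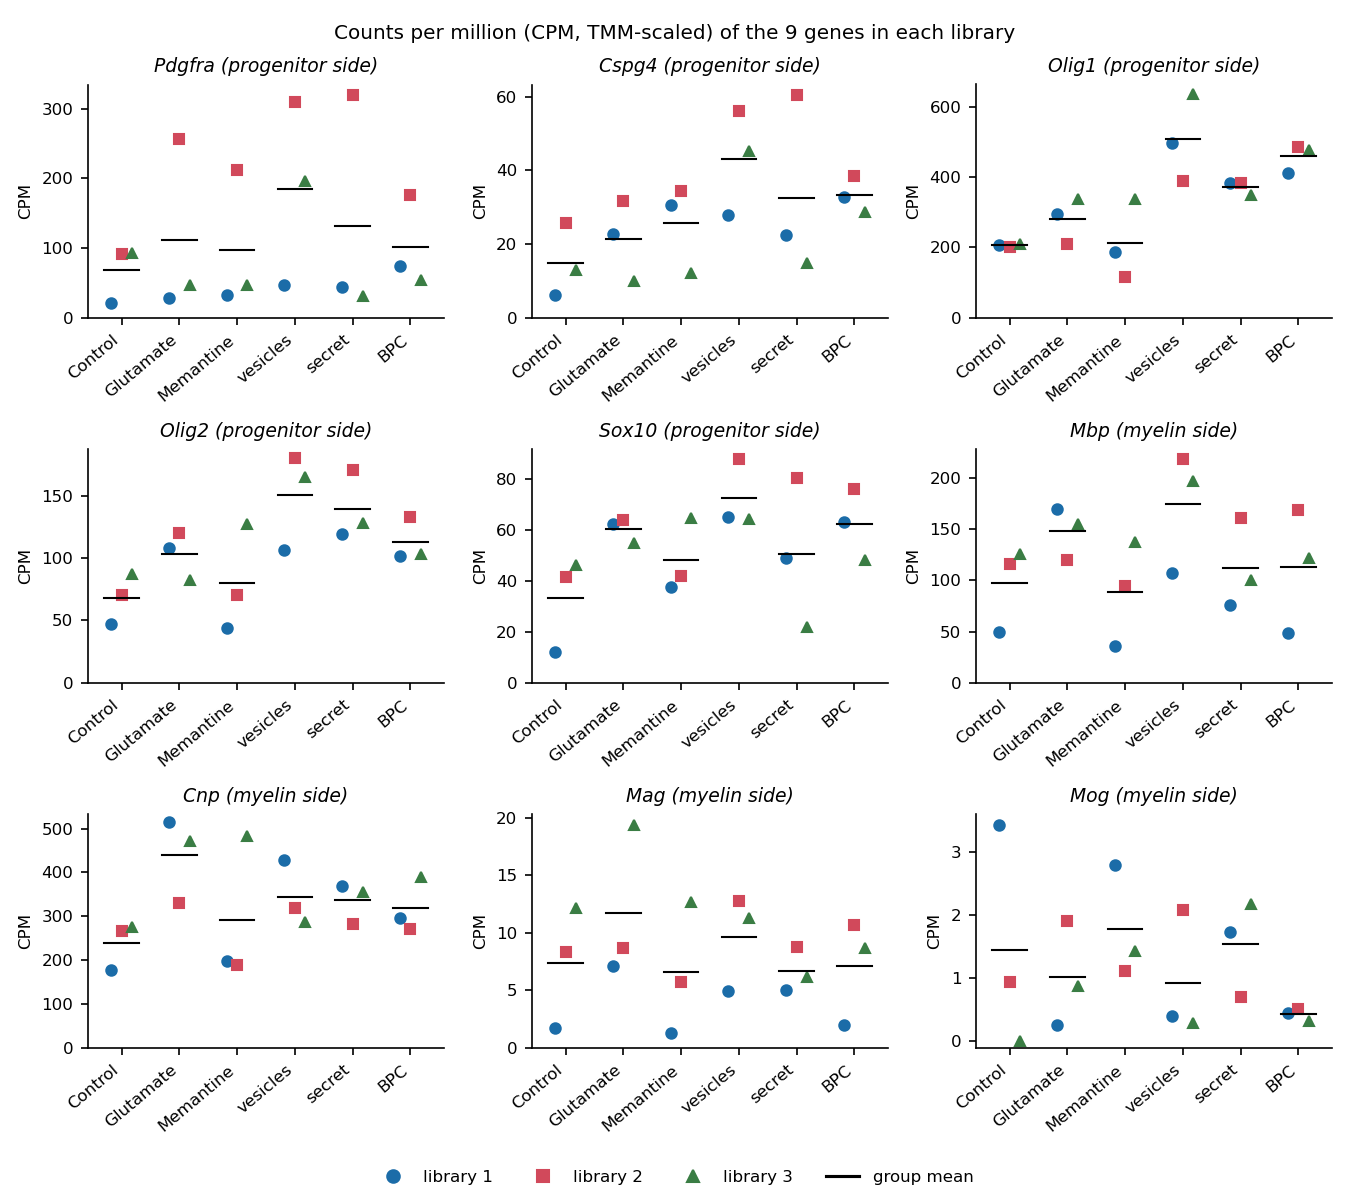
Level of each of the 9 genes (y axis, TMM-scaled CPM) in every library of the 6 groups (x axis, names shortened), with 1 symbol per replicate number and a line for the mean of 3 libraries. Olig1 was at least 349 CPM in all 9 libraries of the 3 preparations and at most 339 CPM in the other 9, while the libraries numbered 2 held the highest Pdgfra of every group but Control.

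Olig1, the basic helix-loop-helix factor that accompanies Olig2 through the lineage, gave the clearest pattern by group. It was measured at 207, 200.2 and 210.2 CPM in Control 1 to 3. The Glutamate libraries gave 294, 208 and 339 CPM, and the Memantine libraries 186, 116 and 337 CPM. With vesicles it reached 496, 389 and 637 CPM, with the preparation of Glutamate_secret 383, 382 and 349 CPM, and with that of Glutamate_BPC 411, 486 and 478 CPM. Thus all 9 libraries of the secreted preparations lay above the other 9, with 349 CPM as the lowest of the former and 339 CPM as the highest of the latter. Among the 9 genes this held for 1, and among all tested genes for 8, or 0.0556%. This split was noticed in the values and is a description. The 3 Control libraries differed little (206 ± 5.11 CPM, SD, n = 3), including Control 1 with its high share of ribosomal RNA.

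Olig2, the factor that specifies the lineage, followed with a smaller separation. It stood at 46.8, 70.7 and 87.4 CPM in Control and at 108, 120.1 and 82.5 CPM in Glutamate. Memantine gave 43.8, 70.3 and 127 CPM, the highest in Memantine 3. With vesicles the values were 106.4, 181 and 165 CPM, in Glutamate_secret 119.6, 171 and 128 CPM, and in Glutamate_BPC 102, 133 and 103 CPM. All libraries of the preparations were above all Control libraries, but their ranges overlapped with Glutamate.

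Sox10, the factor required for terminal differentiation of the lineage, had 1 low library in Control. Its level was 11.99, 41.3 and 46.3 CPM in Control and 62.1, 63.9 and 54.8 CPM in Glutamate. It was 37.4, 42.0 and 64.8 CPM in Memantine and 65.1, 87.8 and 64.1 CPM in Glutamate_vesicles. Glutamate_secret spanned 49.0, 80.3 and 21.7 CPM, and Glutamate_BPC 63.0, 75.9 and 48.3 CPM. Control 1 was the lowest library, and without it the log2 difference of Glutamate_vesicles from Control was 0.72, where it was 1.12 with it.

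The surface markers of progenitors were spread widely inside every group. Pdgfra was at 21.1, 91.0 and 93.2 CPM in Control, 28.7, 257 and 47.1 CPM in Glutamate and 32.8, 212 and 46.6 CPM in Memantine. In the vesicle group it was at 47.5, 309.7 and 196 CPM, in Glutamate_secret at 43.3, 319.9 and 30.8 CPM and in Glutamate_BPC at 74.4, 176 and 53.3 CPM. The second library was the highest in all groups except Control, and all 6 groups overlapped. Cspg4 stood at 5.996, 25.7 and 12.9 CPM in Control, 22.7, 31.7 and 9.92 CPM in Glutamate and 30.5, 34.3 and 12 CPM in Memantine. With vesicles it was at 28.0, 56.3 and 45.3 CPM, in Glutamate_secret at 22.4, 60.7 and 14.8 CPM, and in Glutamate_BPC at 32.7, 38.6 and 28.7 CPM. The vesicle and BPC libraries were all above the Control libraries, whereas those of Glutamate_secret were not.

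On the myelin side, Cnp was highest in Glutamate. It was measured at 176, 267 and 275 CPM in Control and at 515, 331 and 472 CPM in Glutamate, with no overlap. Memantine gave 197, 189.5 and 484 CPM, where Memantine 3 again lay with the Glutamate libraries. The means of the preparations lay between, with values of 429, 319 and 287 CPM with vesicles, 369, 283 and 356 CPM in Glutamate_secret and 295, 271 and 389.6 CPM in Glutamate_BPC. Mbp stood at 49.1, 117 and 126 CPM in Control, 170.1, 119.9 and 156 CPM in Glutamate and 35.3, 94.2 and 137 CPM in Memantine. With vesicles it was at 108, 219 and 197 CPM, in Glutamate_secret at 75.6, 161 and 100.1 CPM, and in Glutamate_BPC at 48.6, 169 and 122 CPM. No group of Mbp was separate from Control. Mag ranged from 1.29 CPM in Memantine 1 to 19.4 CPM in Glutamate 3, and its highest group mean was 11.7 ± 6.68 CPM (SD, n = 3) in Glutamate. This mean was within the range of Control, Memantine and Glutamate_vesicles. It was above the highest library of Glutamate_secret (8.715 CPM) and of Glutamate_BPC (10.7 CPM), although the Glutamate libraries overlapped with both.

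The order of the group means was therefore not shared by the sides. For each of the 5 progenitor genes Glutamate_vesicles was highest and Control lowest, with a ratio of highest to lowest mean of 2.18 for Sox10 up to 2.91 for Cspg4. For Cnp and Mag, Glutamate was highest, and for Mbp Glutamate_vesicles was highest with Memantine lowest. For Mog, Memantine was highest. Neighbours in these orders overlapped for every gene except Olig1, where Glutamate_BPC lay above Glutamate_secret and Glutamate_secret above Glutamate without overlap. Across all 6 groups, the F test of edgeR gave an unadjusted p of 0.0106 for Olig1, adjusted p = 0.304, and called none of the 9 genes, while 1 gene (0.00695%) of all tested was called. At an unadjusted p below 0.05, Olig1 was the only 1 of the 9, against 1116 genes in all. Without Memantine 3, a library singled out by its own values, adjusted p of Olig1 by edgeR was 0.0321, where 512 of all tested genes were called. With DESeq2 on all 18 libraries it was 0.00144, where 717 of all tested genes were called.

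The first comparison asked what glutamate did to the lineage genes. None of the 9 genes was called changed between Glutamate and Control by the quasi-likelihood test of edgeR (adjusted p below 0.05), nor was any other gene (0%). Fold changes were above 1 for 5 of 5 progenitor genes and 3 of 4 myelin genes, with medians on the log2 scale of 0.60 for the progenitor genes and 0.62 for the myelin genes, where the median of all tested genes was 0.08. With 1 library left out, the progenitor median ranged from 0.39 (without Control 1) to 0.95 (without Control 2) and the myelin median from 0.32 (without Glutamate 3) to 0.91 (without Control 3). Without Glutamate 2, 4 of the 5 progenitor genes were above 1, and Pdgfra was at -0.86 on the log2 scale. A looser criterion required a fold change over 1.5 and p below 0.05 before adjustment. By it, 1 of the 9 genes was higher in Glutamate, namely Cnp, beside 8.07% of all genes in either direction. Its log2 fold change was 0.88 ± 0.40 (SE), with an adjusted p of 0.590. Cnp met the criterion without Glutamate 2 but not when any of the other 5 libraries was left out, when no gene of the 9 met it. Of all 14398 tested genes, 1167 had an unadjusted p below 0.05 by edgeR, and 1178 had it without Glutamate 2. Without another library the count ran from 725 (Glutamate 3) to 1181 (Control 1). Sox10 differed by 0.85 ± 0.48 and Mbp by 0.61 ± 0.54 on the log2 scale, and by 0.46 and 0.29 without Control 1. All 14 tested genes of the further progenitor list also had fold changes above 1 (median log2 0.75), and none of them met the criterion. Of all tested genes, 8062 had a fold change above 1. With the replicate number as a block in the model, Mbp and Cnp met the criterion (unadjusted p = 0.0456 and 0.0254 by edgeR). None of the 9 was then called, beside 166 called genes and 2134 at an unadjusted p below 0.05 among all. Libraries numbered 3 of these groups did not deviate together (r = -0.12). The neuron marker sum was lower in Glutamate and that of astrocyte markers overlapped with Control (values above), and their part in these fold changes was not tested.

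Memantine was compared with Glutamate to ask whether the receptor blocker altered these genes. No gene was called (0%), and none of the 9 met the looser criterion, which 5.06% of all genes did. The myelin genes Mbp, Cnp and Mag were lower in Memantine by log2 differences of -0.74 ± 0.54, -0.60 ± 0.39 and -0.83 ± 0.79. Memantine 3, whose neuron markers were at the level of Glutamate, carried the values nearest to Glutamate. It is singled out here by its values, so that leaving it out was bound to widen the differences from Glutamate. Without it, Cnp differed by -1.18 ± 0.36, Olig1 by -0.89 ± 0.35 and Olig2 by -0.87 ± 0.37, and these 3 genes met the looser criterion. Their adjusted p values by edgeR were then 0.131, 0.261 and 0.301. Without the fold limit, 3 of the 9 and 1960 of all 14398 tested genes then had an unadjusted p below 0.05. With all libraries 731 genes had it, and 259 were called without Memantine 3. With the replicate number as a block in the model, 2 myelin genes met the criterion, and none was called. Without the fold limit, the block left 2 of the 9 and 1156 of all tested genes at an unadjusted p below 0.05. Against Control, Memantine showed no called gene (0%) and none of the 9 at the looser criterion (1.12% of all genes). The fold change of Cspg4, 0.77 ± 0.61 on the log2 scale, was the largest of the 9 there.

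The preparations were compared with Glutamate to ask what they added to it. None of the 9 genes was called in any of these comparisons, and no other gene was (0% in each). In Glutamate_vesicles, 1 of the 9 met the looser criterion, beside 1.08% of all genes. This was Olig1, at a log2 difference of 0.86 ± 0.37 with an unadjusted p of 0.0363 and an adjusted p of 1. It no longer met the criterion without Glutamate 1 or 2 or without Glutamate_vesicles 1 or 3. At an unadjusted p below 0.05 by edgeR there were then 173, 175, 156 and 47 genes of all, against 155 with all libraries. With the replicate number as a block, Olig1 and Cspg4 met the criterion (unadjusted p = 0.0162 and 0.0180 by edgeR). Then 463 of all 14398 tested genes were below 0.05, and none was called. Libraries numbered 3 of these groups did not deviate together (r = 0.0046). Without the block, the other log2 differences were 1.01 ± 0.61 for Cspg4, 0.73 ± 1.04 for Pdgfra and 0.54 ± 0.38 for Olig2. All 5 progenitor genes had positive differences (median 0.73), while 3 of the 4 myelin genes had negative ones (median -0.21). With 1 library left out, all 5 progenitor differences stayed positive (median 0.39 without Glutamate_vesicles 2 to 0.87 without Glutamate_vesicles 1), while the myelin median ranged from -0.41 without Glutamate_vesicles 2 to 0.12 without Glutamate_vesicles 1, when 1 of 4 was negative. The further progenitor genes did not share this direction, since 13 of 14 were lower than in Glutamate (median -0.28), and none met the criterion. Of all 14398 tested genes, 7380 were lower. Some of the 13 lay near 0, such as Pcdh15 (-0.04 ± 0.65) and Vcan (-0.05 ± 0.93). With the block these 2 were at 0.14 and 0.17, and the median of the list was -0.19. The list also holds Bcas1, a marker of newly formed oligodendrocytes.

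In Glutamate_secret against Glutamate, none of the 9 genes met the looser criterion, as against 0.674% of all genes. The progenitor median was 0.41 and the myelin median -0.39 on the log2 scale. The former was -0.21 without Glutamate_secret 2. Of the 14 further progenitor genes, 10 were lower than in Glutamate and 4 higher (median -0.345), and none met the criterion. Of all 14398 tested genes, 7342 were lower. Olig1 differed by 0.41 ± 0.37, with a 95% interval from -0.38 to 1.20. In Glutamate_BPC against Glutamate none met it either, beside 1.06% of all genes, although the ranges of Olig1 did not overlap. Its log2 difference was 0.71 ± 0.37, with a 95% interval from -0.08 to 1.502. All 4 myelin genes were lower (median -0.59, and -0.34 without Glutamate_BPC 1 to -0.97 without Glutamate_BPC 2), for example Cnp by -0.47 ± 0.39. Of the 14 further progenitor genes, 12 were lower than in Glutamate and 2 higher (median -0.85), and 2 met the criterion, both lower. Of all 14398 tested genes, 7879 were lower. With the replicate block, none of the 9 genes met the criterion in Glutamate_secret and 1, on the progenitor side, met it in Glutamate_BPC. Without the fold limit, these counts were the same. Beside them, 466 and 486 of all 14398 tested genes had an unadjusted p below 0.05 by edgeR. None of the 9 was called in either comparison.

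When the 3 preparations were pooled against Glutamate, a comparison added after the values were seen, none of the 9 was called (0% of all genes) or met the looser criterion (1.34% of all genes). Olig1 was at 446 CPM on average over 9 libraries against 280.3 CPM over 3. This was a log2 difference of 0.66 ± 0.32, with an unadjusted p of 0.0539 and an adjusted p of 1 by edgeR. The mean of Cnp was 333 CPM against 439.5 CPM. Bcas1, a marker of newly formed oligodendrocytes counted here on the further progenitor list, was at 188 CPM against 328 CPM. Tnr, of the same list, was at 12.9 CPM against 29.9 CPM. Both met the looser criterion (unadjusted p = 0.0242 and 0.0428 by edgeR), and neither was called.

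**Figure D2:**
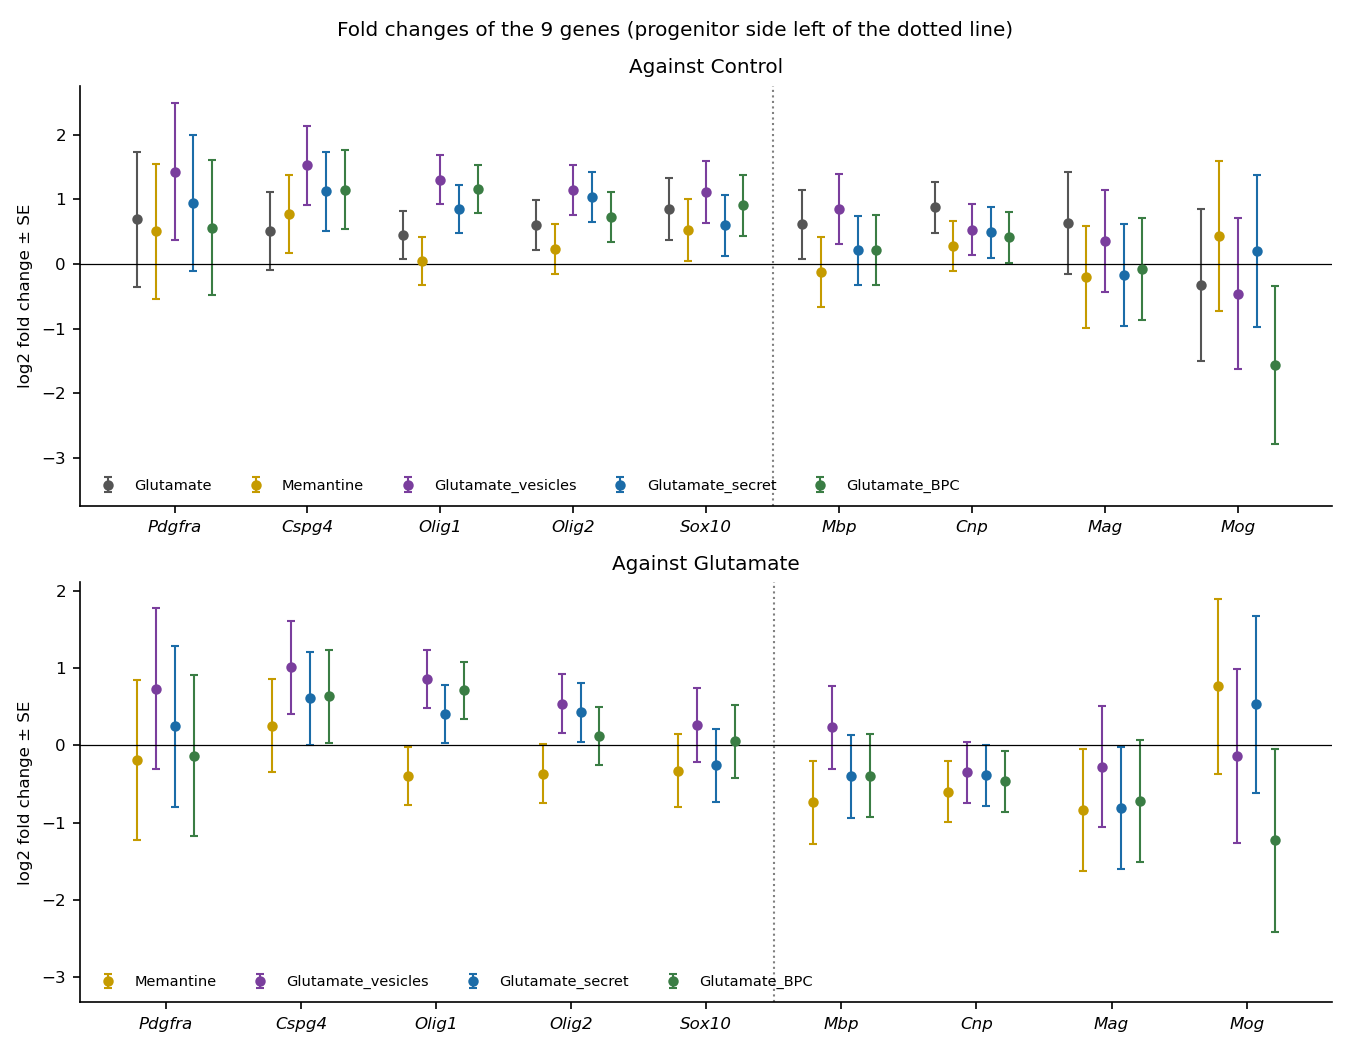
Log2 fold changes (y axis, with standard error) of the 9 genes (x axis, progenitor side left of the dotted line) against Control in the upper panel and against Glutamate in the lower panel, 1 colour per group. The 5 progenitor genes of Glutamate_vesicles lay between 1.12 and 1.52 above Control, and the 4 myelin genes between -0.46 and 0.84.

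Against Control, the secreted preparations with glutamate showed the largest differences of the progenitor genes. In Glutamate_vesicles, 4 of the 9 genes were higher by the looser criterion, as against 11.6% of all genes in either direction. These were Cspg4 and the factors Olig1, Olig2 and Sox10, which mark the lineage rather than progenitors alone. All 4 are of the progenitor side, Pdgfra did not meet the criterion, and none of the 4 myelin genes did. Of the 14 further progenitor genes, 11 were higher than in Control and 3 lower (median log2 difference 0.45), and none met the criterion. Of all 14398 tested genes, 7519 were higher. The log2 differences were 1.30 ± 0.38 for Olig1, 1.14 ± 0.39 for Olig2, 1.52 ± 0.61 for Cspg4 and 1.12 ± 0.48 for Sox10. The adjusted p values by edgeR were 0.206, 0.245, 0.345 and 0.373, so that none was called, where 2 genes (0.0139%) of all were. Pdgfra differed by 1.43 ± 1.06, Mbp by 0.84 ± 0.54 and Cnp by 0.53 ± 0.39. The libraries of the vesicle group lay above all Control libraries for these 4 progenitor genes and for Cnp, where 9.72% of all genes showed such a separation.

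Libraries with the same number deviated together in Glutamate_vesicles and Control, so that the number was also taken as a block. The block fits an effect of the number that all groups share, and is not a pairing of these groups alone. Libraries numbered 3 did not deviate together in every pair of groups (r = -0.12 for Glutamate with Control and -0.45 for Glutamate_secret with Control). With the replicate number as a block, Olig1 (adjusted p = 0.0414) and Cspg4 (adjusted p = 0.0461) were called changed by edgeR, and Olig2 was at 0.0598. The block raised the number of called genes among all from 2 to 538. DESeq2 without a block called Olig1 alone of the 9 (adjusted p = 0.00869), and 488 of all genes. Without Control 1, the library with 43.0% of ribosomal RNA, Olig1 and Olig2 met the looser criterion and Sox10 and Cspg4 did not, and the same 2 genes remained without Glutamate_vesicles 2. Of all genes, 1670 had an unadjusted p below 0.05 by edgeR with all libraries, 1193 without Control 1 and 1270 without Glutamate_vesicles 2. The difference of Olig1 itself was 1.31 ± 0.43 without Control 1 and 1.46 ± 0.42 without Glutamate_vesicles 2. The neuron marker sums of the vesicle group were 583 to 893 CPM, below those of Control, and the fibroblast and mural cell sums were 12.2 to 18.4 CPM against 3.71 to 10.5 CPM. The Schwann cell sums were 9.58 to 13.8 CPM against 1.14 to 5.49 CPM. Their part in the differences of Olig1, Olig2, Cspg4 and Sox10 was not tested.

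In Glutamate_secret against Control, 2 of the 9 genes were higher by the looser criterion, Olig1 (0.85 ± 0.37 on the log2 scale) and Olig2 (1.03 ± 0.39), beside 11.7% of all genes. Neither was called by edgeR (adjusted p = 0.385 and 0.303, with 0% of all genes called). Of the 14 further progenitor genes, 12 were higher than in Control and 2 lower (median 0.46), beside 7696 of all genes higher, and none of the 14 met the criterion. None of the 9 met the criterion without Control 1 or without Glutamate_secret 2, and 1 did without Control 3 or Glutamate_secret 1, in each case Olig2. Without Control 2 or Glutamate_secret 3, Olig2 and Cspg4 met it. Over all genes the number at an unadjusted p below 0.05 by edgeR, 1692 with all libraries, did not move with these counts. It was 1942 without Control 1, 2594 without Glutamate_secret 2, 1513 without Control 3 and 1233 without Glutamate_secret 1. It was 1052 without Control 2 and 1043 without Glutamate_secret 3. In Glutamate_BPC against Control, Olig1 alone met the criterion, at 1.16 ± 0.38, with an adjusted p of 0.303 by edgeR, beside 11.3% of all genes and 0% called. Cspg4 (1.15 ± 0.61), Sox10 (0.90 ± 0.48) and Olig2 (0.72 ± 0.38) had 95% intervals that included 0. Leaving out Control 2 added Cspg4, and leaving out Control 3 added Sox10 and Mog, the latter lower than in Control. Of all genes, 1632 had an unadjusted p below 0.05 by edgeR with all libraries, 1199 without Control 2 and 1700 without Control 3. DESeq2 called Olig1 in this comparison (adjusted p = 0.0332), beside 251 of all genes. Of the 14 further progenitor genes, 7 were higher than in Control and 7 lower (median 0.08), beside 6770 of all genes higher, and none of the 14 met the criterion. All comparisons with Control share its 3 libraries, so that their values stand side by side and are not separate evidence.

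The progenitor side was set against the myelin side by subtracting the mean log2 CPM of the 4 myelin genes from that of the 5 progenitor genes in each library. This score has no test, since its genes were chosen. It leaves out the further progenitor genes, most of which were lower in each preparation than in Glutamate. It was 1.46 ± 0.60 in Control and 1.40 ± 0.56 in Glutamate (SD, n = 3). In Glutamate the means of both sides, 6.22 and 4.83, were above those of Control, 5.61 and 4.16. It was 1.65 ± 0.54 in Memantine and 1.80 ± 0.86 in Glutamate_secret. The values were 2.30 ± 0.29 in Glutamate_vesicles and 2.45 ± 0.51 in Glutamate_BPC. By library, Glutamate_vesicles spanned 2.10 to 2.63 and Glutamate_BPC 1.96 to 2.98, and Control spanned 0.82 to 2.01. The highest Glutamate value was 1.86. The order of the libraries depended on Mog, whose 0 counts in Control 3 set the highest Control value of 2.01. Without Mog, an alternative chosen after the values were seen, Control 3 was at -0.24 and Control spanned -0.24 to 0.12, Glutamate -0.93 to 0.59, Glutamate_vesicles 0.48 to 0.74 and Glutamate_BPC 0.13 to 1.55. The vesicle libraries lay above the Control libraries on both scores. They lay above the Glutamate libraries with Mog and overlapped with them without it, whereas Glutamate_BPC overlapped with Control with Mog and lay above it, by 0.13 against 0.12 at the nearest, without it. In Glutamate_vesicles the progenitor mean was 6.97 against 5.61 in Control and the myelin mean 4.67 against 4.16. In Glutamate_BPC they were 6.62 and 4.17. Without Control 1, the distance of the vesicle group from Control shrank from 0.85 to 0.53.

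**Figure D3:**
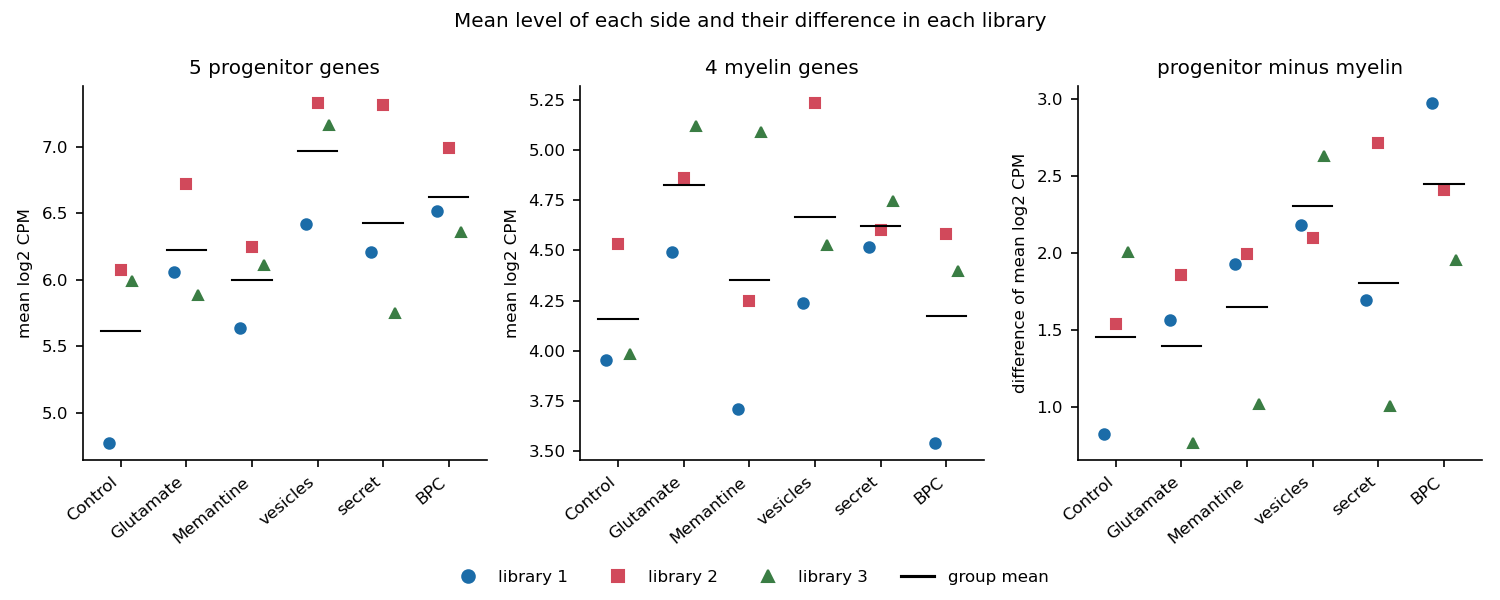
Mean log2 CPM of the 5 progenitor genes, of the 4 myelin genes and their difference (y axes) in each library by group (x axis), with a line for the group mean. The difference was 2.10 to 2.63 in Glutamate_vesicles and 0.82 to 2.01 in Control, where the highest Control value is that of Control 3 with Mog at 0 counts, and the libraries of Glutamate_secret were spread from 1.00 to 2.71.

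More of the 9 genes were called between replicate numbers than between groups, as was so for all tested genes. The labels give numbers 1 to 3 in each group and do not say what a number stands for. The supplement of the study mentions a correction for day in a clustering plot, without saying whether the numbers stand for days. In a model of group and number, 60.4% of all genes were called between numbers. Of the 9, a smaller share was called, 4 genes, namely Pdgfra, Cspg4, Mbp and Mag. Pdgfra was higher in the libraries numbered 2 than in those numbered 1 in 6 of 6 groups, by 2.48 ± 0.40 on the log2 scale or 5.60-fold (adjusted p = 0.000994 by edgeR). Mag differed by 1.44 ± 0.35, Mbp by 0.99 ± 0.28 and Cspg4 by 0.84 ± 0.30. Olig1 (-0.19 ± 0.22), Cnp (-0.19 ± 0.24), Olig2 (0.49 ± 0.23) and Sox10 (0.51 ± 0.30) were not called, nor was Mog. Olig1, with the smallest p among groups, was thus not called between numbers.

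The further lineage genes differed by number in opposite directions. Of the 14 tested progenitor genes 13 were called, 10 of them higher in libraries numbered 2, and of the 12 tested myelin genes 6 were called, 4 of them higher. Of all tested genes 60.4% were called, with 4597 of the 8694 called genes higher in libraries numbered 2. Ptprz1, a phosphatase of progenitors, was higher by 3.82 ± 0.55 on the log2 scale, and Gpr17, a receptor of committed progenitors, by 3.20 ± 0.55. Neu4 (-2.40 ± 0.43) and Matn4 (-1.35 ± 0.26) were lower. Ptprz1, for instance, was at 1547 CPM in Glutamate 2 and at 46.6 and 109.5 CPM in Glutamate 1 and 3. Ribosomal RNA took less of the counts in libraries numbered 2 (3.04% to 8.15%) than in those numbered 1 (13.4% to 43.0%), and its part in these differences was not tested.

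**Figure D4:**
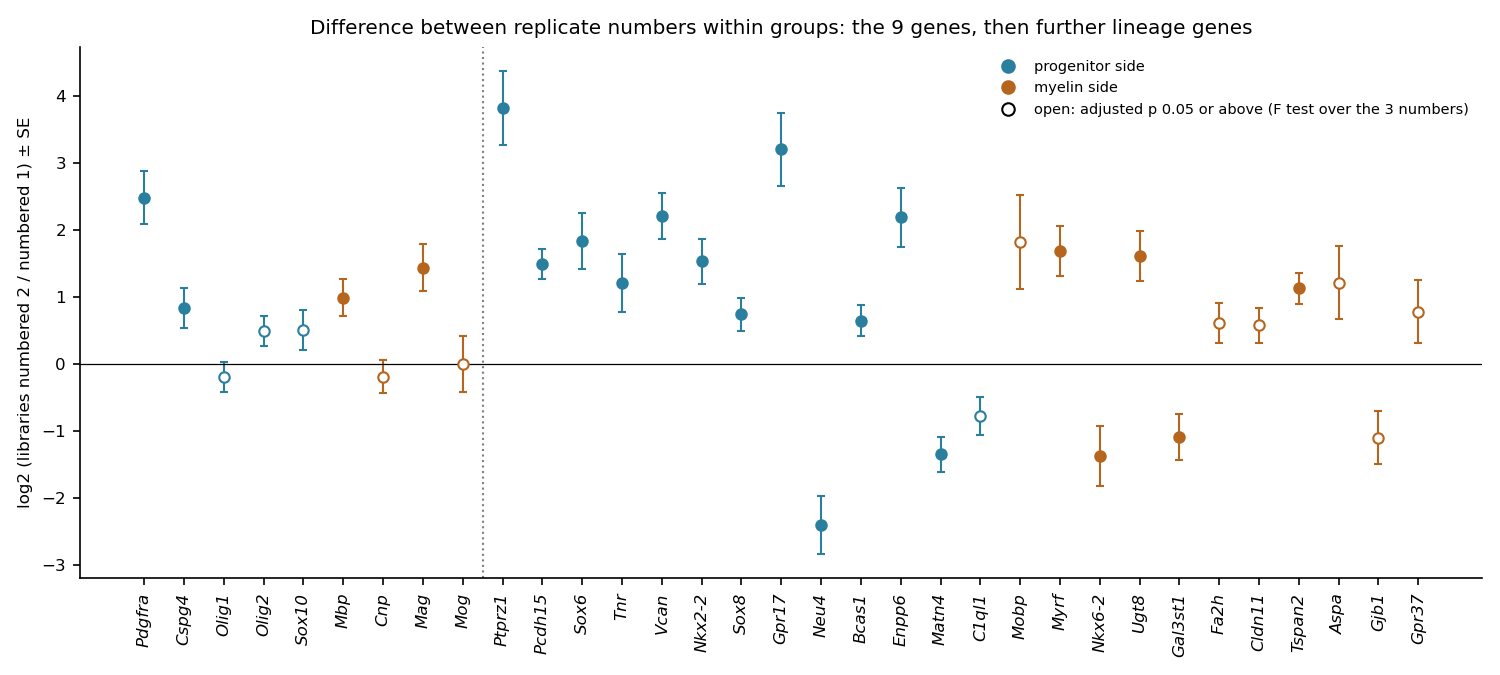
Log2 difference between libraries numbered 2 and 1 within groups (y axis, with standard error) for the 9 genes and, right of the dotted line, further progenitor and myelin genes (x axis). Filled points passed adjusted p below 0.05 in the F test over the 3 numbers, among them Pdgfra at 2.48 and Neu4 at -2.40, while Olig1 lay near 0.

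Across the 18 libraries the 9 genes did not vary as a single block. Mbp and Mag had the highest correlation of log2 CPM (Pearson r = 0.92), followed by Olig2 with Mbp (0.74) and Pdgfra with Cspg4 (0.73). Pdgfra and Olig1 were nearly unrelated (0.05), and Pdgfra and Cnp were at -0.22. Mog, with few counts, had negative correlations with all the others, from -0.15 with Cspg4 to -0.42 with Sox10. With the other myelin genes it was at -0.40 (Mbp), -0.38 (Mag) and -0.28 (Cnp). Cnp followed Olig1 (0.53) and Mag (0.53), and within groups its correlation with Olig1 was 0.65. These are descriptions over 18 libraries that share groups, replicate numbers and depth. Among 11872 candidate genes, those most like the progenitor side were Polg (r = 0.97), Tgif1 (0.95), Pros1 (0.94), Plin2 (0.94) and Flna (0.94). Those most like the myelin side were Evi2a (0.89), Slc2a5 (0.86), Cldn11 (0.83), Gmds (0.81) and Pnlip (0.80). Of these, Cldn11 is a tight-junction protein of myelin and was on the list of further myelin genes.

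Of the further lineage genes, none was called in any of the 9 comparisons by the quasi-likelihood test of edgeR without a block. At the looser criterion 3 were named, all of them lower. Gpr37, a receptor of maturing oligodendrocytes that some neurons also carry, was at 4.28, 3.93 and 5.33 CPM in Control. It was at 0.646, 1.27 and 1.07 CPM in Glutamate and at 1.83, 4.00 and 1.01 CPM in Memantine, the lowest being Memantine 3. No library of Glutamate or of the preparations exceeded 1.68 CPM. Its log2 differences from Control were -2.16 ± 0.75 in Glutamate, -2.20 ± 0.74 with vesicles, -2.15 ± 0.75 in the Glutamate_secret group and -2.80 ± 0.77 in Glutamate_BPC. The adjusted p values by edgeR were 0.386, 0.242, 0.258 and 0.295. It rested on 15 to 99 counts per library in Control and 1 to 38 in the other 4 groups just named. The order of the libraries of Gpr37 was close to that of the neuron marker sum, in that Control and Memantine 1 and 2 were the highest 5 for both, and its part was not tested.

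Bcas1 and Tnr, both on the further progenitor list, were lower in Glutamate_BPC than in Glutamate by the looser criterion. Bcas1 was at 135, 192 and 109 CPM in Glutamate_BPC against 298.5, 406 and 281 CPM, a log2 difference of -1.18 ± 0.43. Tnr, a matrix protein made by progenitors and by some neurons, was at 6.34, 5.88 and 7.48 CPM against 18.1, 53.3 and 18.5 CPM, a log2 difference of -2.19 ± 0.82. The adjusted p was 1 for both by edgeR, and the ranges did not overlap. None of the further myelin genes met the criterion there (0 of 12).

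**Figure D5:**
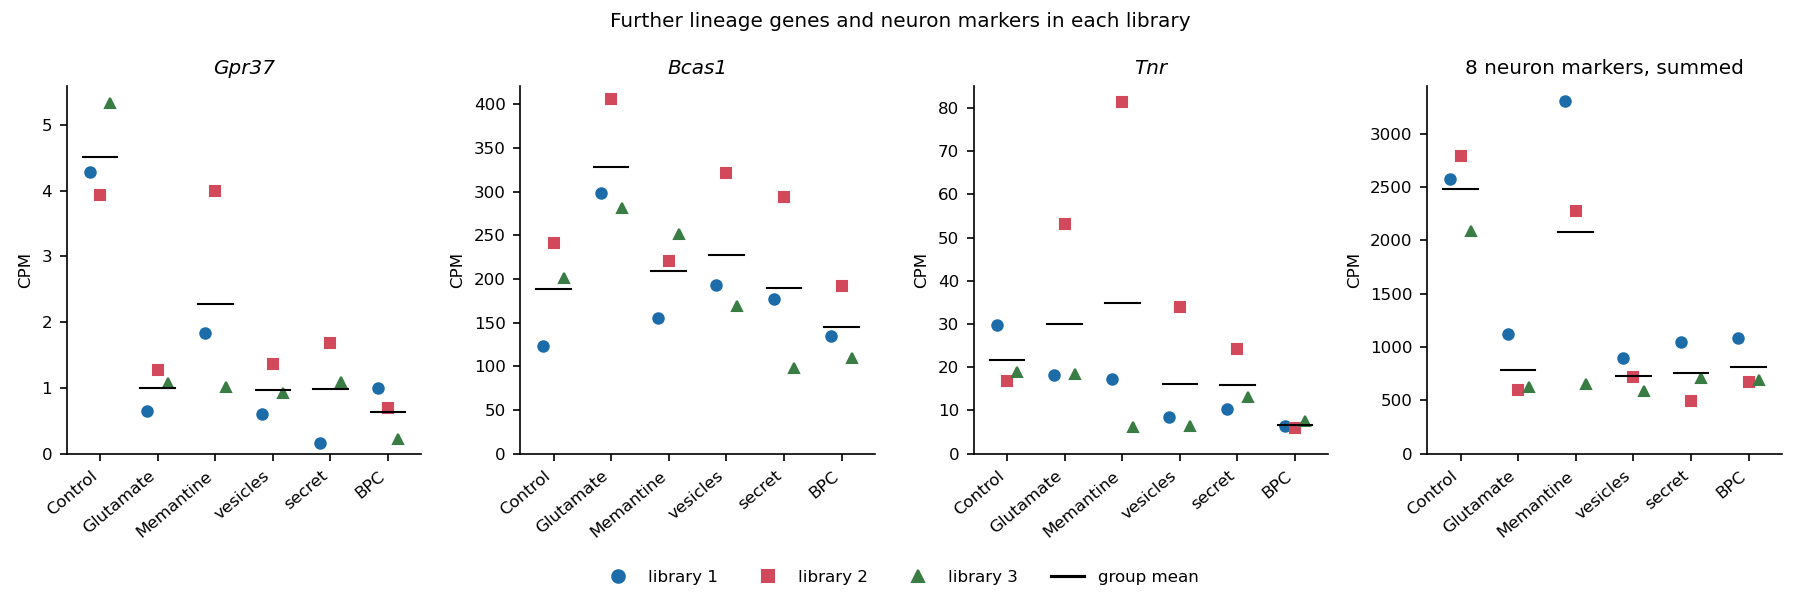
Levels (y axes, TMM-scaled CPM) of Gpr37, Bcas1 and Tnr and the sum of 8 neuron markers in each library by group (x axis), with a line for the mean of 3 libraries. Gpr37 was at 3.93 to 5.33 CPM in Control and at most 1.68 CPM in Glutamate and the 3 preparations, and Memantine 3 lay apart from the other Memantine libraries in the neuron marker sum.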

How the data were processed

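Expected counts per gene were deposited, 1 table per library. The authors trimmed the reads, quantified them with Salmon against rat transcripts and summed transcripts to genes with tximport. The values carry no scaling between libraries, and strand was not stated for the counting. The paper and the labels name different sequencing platforms. Counts were rounded. edgeR 4.0.16 in R 4.3.3 was used with filterByExpr (minimum count 10, minimum total 15), TMM scaling, 1 mean per group over all 18 libraries and the two-sided quasi-likelihood test with Benjamini-Hochberg adjustment over 14398 genes. Calls were made at adjusted p below 0.05, and log2 CPM used a prior count of 2. The standard error was derived from the F statistic.

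The genes and lists were chosen with earlier results of these data known. All 9 genes were named in every comparison, and further lineage genes were named where they met a criterion. Some genes of the lists enter the counts but are not reported here by name. The genes most like each side were the 5 highest correlations with the mean of its standardised genes. The pooled comparison and the split of 9 against 9 libraries were chosen after the values were seen. The correlation of deviations of libraries with the same number was above 0.1 in every pair for Memantine, Glutamate_secret and Glutamate_BPC with Glutamate and for Glutamate_vesicles with Control (0.60, 0.50 and 0.21 in the latter). Pairing there comes from these correlations, since the labels give only the numbers. The replicate block was fitted over all 18 libraries, with an effect of the number shared by all groups. The scripts were tested on simulated data. Alternatives were DESeq2 1.42.0, its size factors in edgeR, no filter, the likelihood-ratio test used by the study, the replicate block and leaving out each library. Levels of different genes were not compared, since transcript lengths were not used here. Floors cover counting error only.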

Additional observations from a re-analysis of the deposited data

How the results depend on the processing

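The alternatives gave 160 values for the counts of called genes among the 9, of which 155 had the same label as those reported. They also gave 457 values for a chosen set of 41 fold changes, which does not hold all those in the report. Of these 457 values, none changed sign and 8 changed side of the threshold. Over all 81 fold changes of the 9 genes in 9 comparisons, however, 28 changed sign when a library was left out, most often those of Pdgfra (7 of 9), Mag and Mog (5 of 9 each). Pdgfra in Glutamate against Control went from 0.69 to -0.86 without Glutamate 2. The number of the 9 called in Glutamate_vesicles against Control was 2 with the replicate block and 1 with DESeq2, instead of 0. DESeq2 also called 1 in Glutamate_BPC against Control and 1 among the 6 groups. Leaving out 1 library gave 0 to 1 called genes among the 6 groups, the 1 being Olig1 without Memantine 3, and 4 between replicate numbers throughout. The distance of progenitor minus myelin between Glutamate_vesicles and Control was 0.85, and 0.53 to 1.12 with 1 library left out, the lowest without Control 1. With Mog left out, chosen after the values were seen, it was 0.67. In Glutamate_BPC the same distance was 0.99 and ranged from 0.67 to 1.27. The fold of Gpr37 was called in Glutamate_BPC against Control by the likelihood-ratio test, DESeq2 and the replicate block (adjusted p = 0.0454, 0.0177 and 0.0491), and in Glutamate_vesicles by DESeq2 (0.0403).

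Counts over all genes varied more. Against Control, Glutamate gave 0 called genes, 45 with the likelihood-ratio test, 166 with the block and 235 with DESeq2. Glutamate_vesicles gave 2, 160, 538 and 488 in the same order, Glutamate_secret 0, 223, 700 and 443, and Glutamate_BPC 0, 61, 251 and 251. Among the 6 groups the counts were 1, 587, 497 and 717, and 5 without the filter. Against Glutamate, at most 3 genes were called under any of these, and Memantine against Glutamate without Memantine 3 gave 259. In comparisons whose numbers did not pair the libraries (correlations of deviations down to -0.45 in number 3), the block added no called gene among the 9. The causes were not tested. Mag and Mog were limited by depth, with as few as 6 and 0 counts.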
